A study of Mus musculus with 31 samples.

Results

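Haptoglobin (Hp) and hemopexin (Hpx) vary between the livers of BXD mouse strains, and the strains in which their mean was high were compared here with those in which it was low. The strains were chosen by the measured log2 ratios of Hp and Hpx: each gene was centred on its median over strains, and the mean of both gave a strain its score. Strains 23, 28, 40 and 42 were left out by rule, and of the other 27 strains the 9 with the highest score were set against the 9 with the lowest, out of 31 strains in all. The high strains were 2, 5, 15, 20, 22, 27, 31, 33 and 34, the low strains were 1, 6, 8, 11, 12, 13, 21, 32 and 39, and 9 strains lay between them. These are not groups of the study: they were formed from Hp and Hpx on the same arrays, so both genes were left out of every count below and are described without a test.

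BXD strains are recombinant inbred lines bred from the parents C57BL/6J and DBA/2J, and no other genotype or treatment separates the high from the low strains in the labels. Each strain is 1 sample: liver RNA pooled from 3 males aged 8 weeks, carrying Alexa Fluor 647, and hybridised to a glass array beside 1 common reference, liver RNA pooled from 9 C57BL/6J males of the same age and carrying Alexa Fluor 555. Dyes were never exchanged. The values are log ratios, read as log2 of strain over reference. By that reading 0 is nominally the level of the reference, and a difference of 1 between strains is nominally 2-fold. Since the dyes kept their sides, a probe's dye effect cannot be told from a difference to the reference. Because a strain is 1 array of a pool of 3 mice, every p-value measures the spread between strains, in which inheritance, cage, sampling and hybridisation cannot be told apart. In whole liver, fewer cells of a type and less RNA per cell also cannot be told apart.

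Haptoglobin and hemopexin are plasma proteins made by hepatocytes. Haptoglobin binds free haemoglobin and hemopexin binds free haem, and the complexes are taken up through the receptors Cd163 and Lrp1, after which haem oxygenase opens the haem ring and releases its iron. Both are also acute phase proteins: interleukin-6 signalling through Stat3 and factors of the C/EBP family raise their transcription during inflammation, together with serum amyloid A, fibrinogen and others.

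The promoter of Hpx is shown because the gene defines the groups together with Hp, and because recognition sequences of acute phase factors are short enough to look for in it. The RefSeq table used (GRCm38.p6) held Hpx at chr7:105600117-105600366 on the minus strand, the 250 bases before its start, and the capitals mark its match to TTGCNNAA, a C/EBP-like form.

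Hpx: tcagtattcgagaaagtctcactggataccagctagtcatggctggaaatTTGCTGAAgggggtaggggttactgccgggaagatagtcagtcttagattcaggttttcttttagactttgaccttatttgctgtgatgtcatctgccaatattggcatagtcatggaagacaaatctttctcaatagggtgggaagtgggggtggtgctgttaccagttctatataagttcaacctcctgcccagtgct

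Both strands were searched, and the match began 200 bases before the start. The form TTNNGCAA is the reverse complement of TTGCNNAA and finds the same bases. TTGCNNAA occurred in 9.56% of 32851 promoter windows, the STAT-like form TTCNNNGAA in 7.02% and an NF-kappa-B-like form (GGG, then 5 bases of any kind, then CC) in 45.8%, and neither of the last forms was in the Hpx window. Of the 25 named genes found higher in the high strains below, 22 had a promoter in the table, of which 1 held TTCNNNGAA, 1 held TTGCNNAA and 11 held the NF-kappa-B-like form. A match is a description of letters and not a binding site.

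Hp and Hpx each had 1 probe, and both had log2 ratios above 0 in all of the 27 strains. In the high strains the Hp log2 ratio had a lowest value of 1.17, a median of 1.89 and a highest value of 3.09 (mean 1.91 ± 0.54, SD, n = 9), in the middle strains 0.79, 1.09 and 1.52, and in the low strains 0.24, 0.59 and 0.86 (mean 0.58 ± 0.21, SD, n = 9). For Hpx the lowest, median and highest values were 0.82, 1.33 and 2.62 in the high strains (mean 1.43 ± 0.53, SD, n = 9), 0.43, 0.88 and 1.37 in the middle strains, and 0.35, 0.55 and 0.72 in the low strains (mean 0.54 ± 0.13, SD, n = 9). The high and low strains overlapped in neither gene, which the choice of strains all but fixes. Mean Hp was 2.5-fold and mean Hpx 1.84-fold higher in the high than in the low strains, the log2 differences being 1.32 and 0.88.

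Strain 22 stood alone at the top, with a score of 1.88 against 0.82 in strain 33, the next. At the edges of the groups the step was small: strain 20 entered the high strains at 0.40 with strain 36 outside at 0.28, and strain 11 entered the low strains at -0.24 with strain 38 outside at -0.22. Hp and Hpx followed each other across the 27 strains (Pearson r = 0.75) and did so less tightly without strain 22 (r = 0.6 over 26 strains). They ordered single strains differently: strain 27 had the lowest Hp of the high strains and a Hpx of 1.64, and strain 20 had the lowest Hpx of the high strains, below the Hpx median of the 27 strains, and an Hp of 1.94. Hp alone would have put 8 of the 9 high and 8 of the 9 low strains in the same groups, and Hpx alone 6 and 7.

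**Figure D1:**
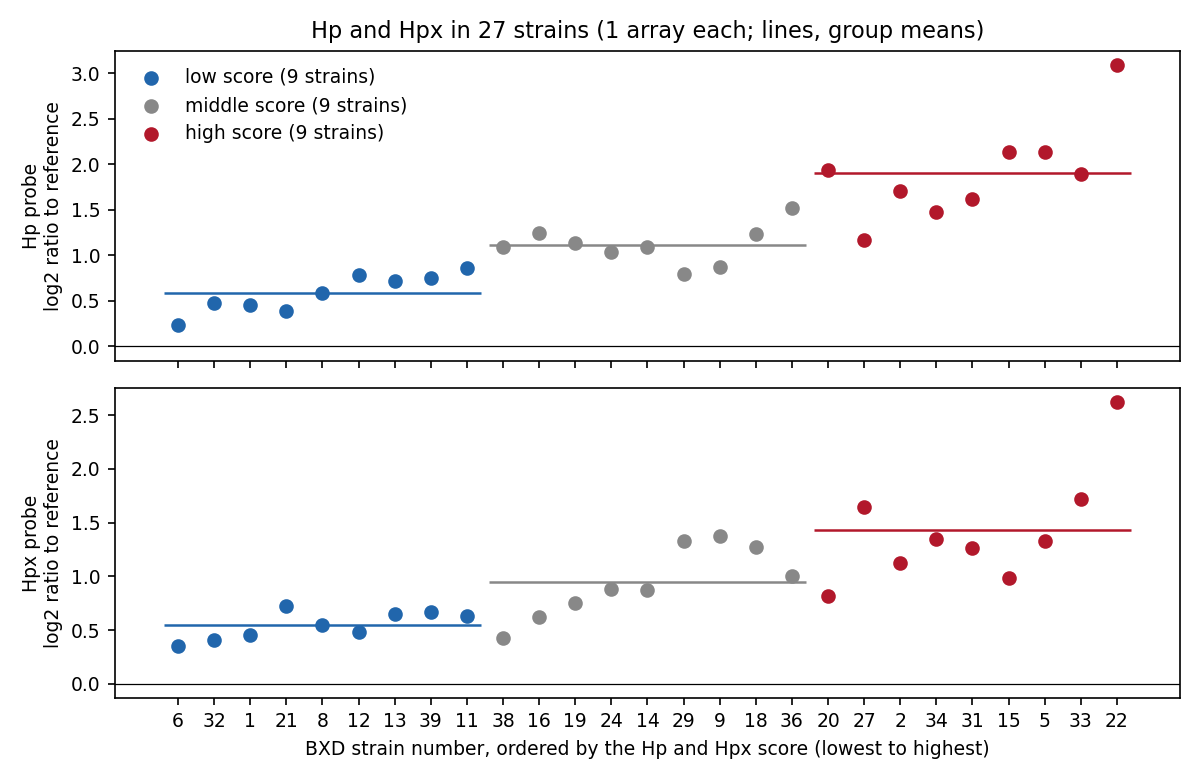
Log2 ratios of the Hp probe (top) and the Hpx probe (bottom) in 27 strains, 1 point per strain and array, ordered along the horizontal axis from the lowest to the highest score, with lines at the mean of each group of 9 strains. Strain 22 lies above all other strains, at 3.09 for Hp and 2.62 for Hpx, and the Hp values of the high strains start at 1.17, above the highest low value of 0.86.

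The arrays of the 2 groups were alike in their median correlation with the other arrays, 0.68 to 0.79 in the high and 0.67 to 0.79 in the low strains. The 4 strains left out by rule had median correlations of 0.057 to 0.37. The precision is limited by the number of arrays, and since the files used hold no intensities, dim or saturated probes could not be told from others. All arrays share 1 distribution of values, so no value lies above 3.65 or below -3.84.

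In the limma fit of the high against the low strains, 36 of 21763 probes passed a Benjamini-Hochberg adjusted p of 0.05 (0.165%), of which 30 were higher (0.138%) and 6 lower (0.0276%) in the high strains. The higher probes named genes of lipid transport (Mttp, Apoc4), ribosomal proteins (Rpl35a, Rps28, Rps7, Rps24, Rpl27), the zinc-binding plasma glycoprotein Azgp1, the complement regulator C4bp and the cytokine Clcf1, and the lower ones Capn8, Lypd8, Ccnt1 and Foxe3. Differences among the 36 ran from 0.31 to 1.49 in size on the log2 scale. At an unadjusted p of 0.05, 3177 probes (14.6%) passed, 1640 higher (7.54%) and 1537 lower (7.06%). Of the 36 probes, 5 had no gene and 2 had clone names. At every 8th identifier, left out in an alternative, stood 4 of the 36 (Rps24, Zcchc12, Foxa3 and 1 without a gene). Of the 21763 probes tested, 19231 stood elsewhere.

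The count of 36 rested on the choice of strains. Leaving out 1 strain at a time gave between 2 probes (without strain 1) and 227 (without strain 8), and 17 of the 18 counts differed from 36 by more than 1.5 times. Groups formed from Hpx alone gave 1 probe, Nedd8, and groups formed from Hp alone 147, while keeping all 31 strains gave 93. The exact rank-sum test, two-sided with Benjamini-Hochberg adjustment, called 0 probes (2779 at an unadjusted p of 0.05), and its smallest adjusted p was 0.09. Azgp1 and Dpm1 passed in all 18 limma fits that left out 1 strain, Apoc4 in 17 and Rps7 in 14, and each of the 36 probes passed in at least 3.

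**Figure D2:**
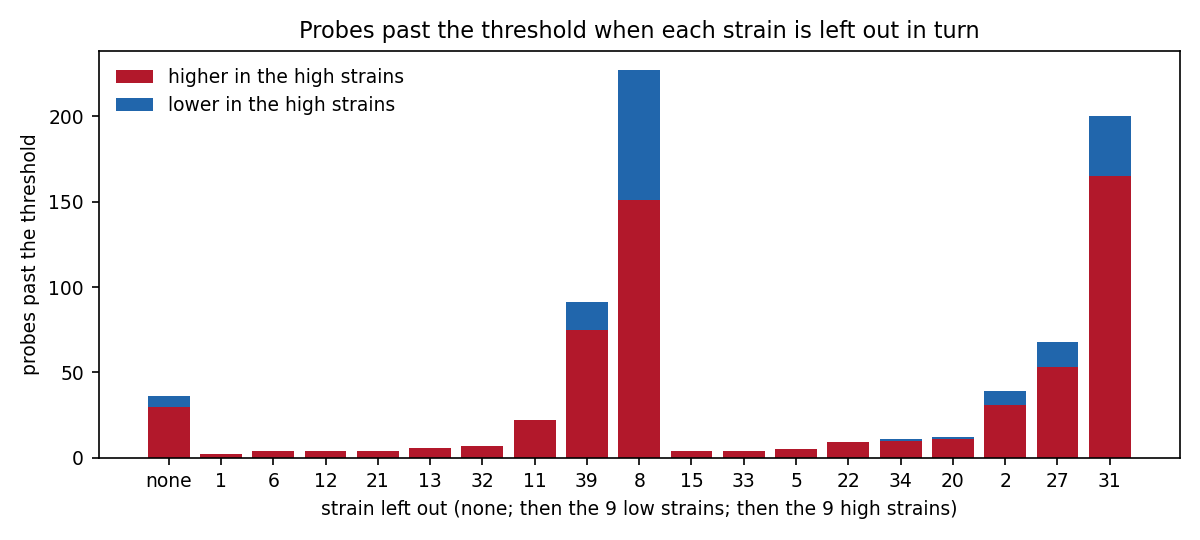
Number of probes past a Benjamini-Hochberg adjusted p of 0.05 in limma (vertical axis) with no strain left out and with each of the 18 strains left out in turn (horizontal axis), split into probes higher (red) and lower (blue) in the high strains. The count rose to 227 without strain 8, to 200 without strain 31 and to 91 without strain 39, and was 2 to 12 without any of 12 other strains.

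Azgp1, or zinc alpha-2-glycoprotein, is a plasma protein known for its part in lipid mobilisation. Its log2 ratio had a lowest value of 0.32, a median of 0.86 and a highest value of 1.15 in the high strains, and -0.17, 0.16 and 0.29 in the low strains. Every high strain lay above every low strain, strain 31 being the lowest of the first and strain 8 the highest of the second. The difference was 0.68 ± 0.10 (SE, limma, Benjamini-Hochberg adjusted p = 0.013), or 1.6-fold. Among all probes tested, the groups did not overlap in 10 (0.0459%), with the high strains above in 3 (0.0138%) and below in 7 (0.0322%). Of the 36 probes past the threshold, 6 were of this kind: Azgp1 and Rps7 above, and Lypd8, Capn8 and 2 with clone names below.

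Apoc4 encodes an apolipoprotein of very low density lipoprotein. Its log2 ratio ran from 0.29 in strain 31 through a median of 1.10 to 1.41 in strain 22 among the high strains, and from -0.14 through 0.23 to 0.63 in strain 11 among the low strains. Of the 9 high strains 8 exceeded the highest low strain, and strain 31 was the exception. The difference was 0.80 ± 0.13 (SE, limma, Benjamini-Hochberg adjusted p = 0.018), or 1.74-fold.

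Mttp, the microsomal transfer protein that loads lipid onto apolipoprotein B, had the largest difference of the named genes past the threshold. Its log2 ratio ran from 0.60 through a median of 1.13 to 1.94 in the high strains, and from -0.23 through 0.25 to 0.79 in the low strains. The groups overlapped, with 7 of 9 high strains above the highest low strain, strain 39. The difference was 0.97 ± 0.18 (SE, limma, Benjamini-Hochberg adjusted p = 0.040). A probe without a gene differed more, by 1.49 ± 0.29 (SE, limma, Benjamini-Hochberg adjusted p = 0.041).

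Among the apolipoproteins as a list, with probes averaged per gene, 11 of 14 had a difference above 0, against 49.2% of the 15093 genes tested. In that fit of genes 36 passed (0.239%), 30 higher (0.199%) and 6 lower (0.0398%), and 2229 genes (14.8%) had an unadjusted p under 0.05. Among the apolipoproteins Apoc4 alone passed, while 8 were higher and 1 lower at an unadjusted p of 0.05, against 8.06% and 6.71% of all genes. The median difference of the list was 0.27, and that of all genes -0.0028. Apoa5, which activates lipoprotein lipase, differed by 0.70 (limma, Benjamini-Hochberg adjusted p = 0.14), Apoc3, which inhibits it, by 0.65 (adjusted p = 0.054), and Apoa4 by 0.54 (adjusted p = 0.11). Apob, the structural protein of the particle that Mttp fills, stood on the other side at -0.44 (limma, Benjamini-Hochberg adjusted p = 0.30), with -2.13 in strain 15, the lowest of the high strains.

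Ribosomal proteins gave 5 of the genes past the threshold, all higher in the high strains. These came from 76 ribosomal probes, and of all probes tested 0.138% were higher past the threshold. Rps7, a small subunit protein, had log2 ratios from 0.66 through a median of 1.04 to 1.55 in the high strains and from 0.03 through 0.34 to 0.66 in the low strains. The highest low strain, strain 11, lay just under the lowest high strain, strain 27, and the difference was 0.68 ± 0.11 (SE, limma, Benjamini-Hochberg adjusted p = 0.022). The Rps7 probe, identifier 39, stands near the Hp probe, identifier 28, which helped to form the groups. Rps28 differed by 0.77, Rps24 by 0.62 and Rpl27 by 0.55, with adjusted p of 0.040, 0.041 and 0.041 in the same limma fit with Benjamini-Hochberg adjustment. In Rps28 and Rpl27 strain 11 held the highest value of the low strains, 1.09 and 0.91.

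Rpl35a had more than 1 probe, and they differed in size. One gave a difference of 0.77 ± 0.15 (SE, limma, Benjamini-Hochberg adjusted p = 0.043) and the other 0.29 ± 0.06 (adjusted p = 0.054). The first is printed next to the probe of Rps28 on the list of probes, with identifiers 4836 and 4837. Ribosomal protein genes have many processed copies in the genome, and since probe sequences were not used here, signal from such copies could not be set apart.

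Over the whole list, 61 of 68 ribosomal protein genes had a difference above 0, against 49.2% of all genes, with a median of 0.20. Of the 68, 35 were higher and 0 lower at an unadjusted p of 0.05, against 8.06% and 6.71% of all genes. The list score of a strain (the centred log2 ratios averaged over the list's genes) ran from -0.001 through 0.19 to 0.39 in the high strains, from -0.23 through -0.016 to 0.18 in the middle strains and from -0.25 through -0.034 to 0.18 in the low strains. Strains 15 and 5 held the highest scores and strains 12 and 14, a low and a middle strain, the lowest, while the low strain 11 reached 0.18 and the high strain 27 only -0.001. Leaving out 1 strain at a time kept the median between 0.18 and 0.23. Rpl38 had the widest difference at 0.97, with an adjusted p of 0.066 (limma, Benjamini-Hochberg), and Rpl34 the lowest at -0.38 (adjusted p = 0.74).

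The calls were spread unevenly over the mean log2 ratio of the probes. All probes were ordered by their mean log2 ratio in the 9 middle strains, which formed neither group, and divided into 10 classes of equal size. The class with the highest ratios held 16 of the 36 probes past the threshold, while its median difference was -0.015. Each other class held 1 to 3. Across all probes the difference had a correlation of -0.053 with the mean in the middle strains. The 76 ribosomal probes had a median middle ratio of 0.20 and an interquartile range of -0.07 to 0.38, and the 10563 other probes within that range had a median difference of -0.015. The part of the ratio's level in the calls was not tested.

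**Figure D3:**
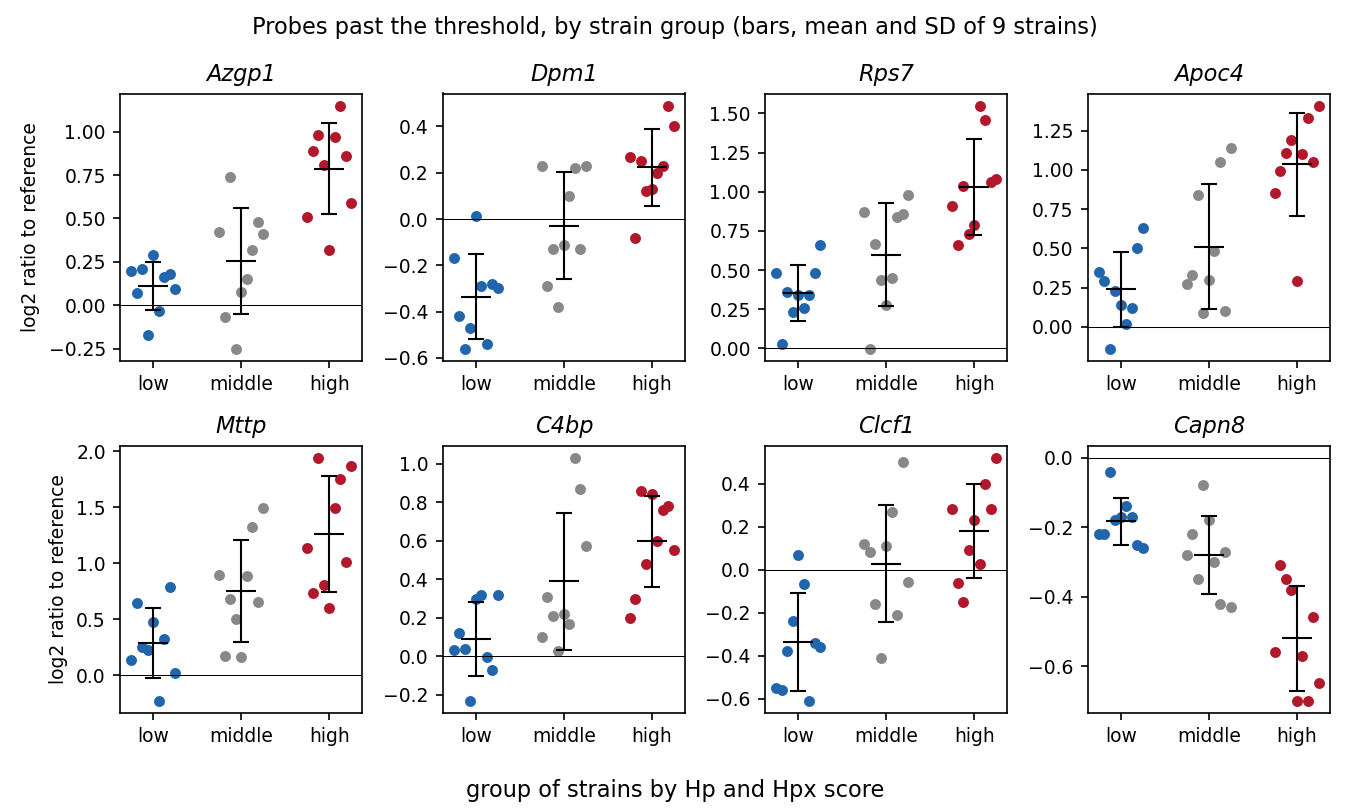
Log2 ratios to the reference of 8 genes past the threshold, 1 point per strain (ordered by score within each group), with the mean and SD of the 9 low, 9 middle and 9 high strains. Azgp1 and Rps7 have no overlap between high and low strains, Capn8 has none in the opposite direction, and Apoc4 has 1 high strain (31) among the low values.

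Of the other higher genes, several serve protein modification and growth signalling. Dpm1, the catalytic subunit of dolichol-phosphate mannose synthase, which feeds glycosylation, had log2 ratios from -0.083 through a median of 0.23 to 0.49 in the high strains and from -0.56 through -0.30 to 0.012 in the low strains. Of the high strains 8 lay above the highest low strain, strain 8, and the difference was 0.56 ± 0.084 (SE, limma, Benjamini-Hochberg adjusted p = 0.014). Nedd8, a ubiquitin-like modifier, differed by 0.61, Egfr, the epidermal growth factor receptor, by 0.52, Smo, the signal transducer of the Hedgehog pathway, by 0.48 and Kif1b, a kinesin motor, by 0.53, with limma adjusted p (Benjamini-Hochberg) of 0.030, 0.048, 0.036 and 0.022.

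Enzymes and nuclear factors were also among the higher genes. Gsta3, a glutathione transferase, differed by 0.68 ± 0.12 (SE, limma, Benjamini-Hochberg adjusted p = 0.030), with log2 ratios of 0.023 to 0.97 in the high and -0.49 to 0.10 in the low strains. Dpys, dihydropyrimidinase of pyrimidine breakdown, differed by 0.55 (adjusted p = 0.049), and it was the one probe of the 36 whose middle strains did not lie between the groups by their mean, strain 16 standing at -2.55. Pcgf3, a Polycomb subunit, differed by 0.71 and Foxa3, a liver transcription factor, by 0.34 (limma, Benjamini-Hochberg adjusted p = 0.043 and 0.046). Cdk7, the kinase of transcription factor TFIIH, differed by 0.52 and the nucleolar GTPase Gtpbp4 by 0.43 (adjusted p = 0.049 and 0.048 in the same fit). The remaining named probes that were higher were Tcl1b3 (0.61), Epb41l4aos (0.58), Zcchc12 (0.53) and Dennd1c (0.37).

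The 4 named genes lower in the high strains differed by 0.31 to 0.49 in size. Capn8, a calpain protease, had log2 ratios from -0.70 through a median of -0.56 to -0.31 in the high strains and from -0.26 through -0.18 to -0.04 in the low strains. All 9 high strains lay below all 9 low strains, and the difference was -0.34 ± 0.065 (SE, limma, Benjamini-Hochberg adjusted p = 0.041). Lypd8 differed by -0.31, also without overlap, Ccnt1, the cyclin of the elongation factor P-TEFb, by -0.35 and the forkhead factor Foxe3 by -0.49, with limma adjusted p (Benjamini-Hochberg) of 0.041, 0.046 and 0.049.

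Since fewer than 5 named genes were lower, the next by p are given, all of which missed the threshold. Keg1 stood at -0.71, Zfp101 at -0.56, Hdhd5 at -0.45, Zfp566 at -0.38, Pld3, a lysosomal nuclease, at -0.36 and Stmn2, a stathmin of neurons, at -0.31, with limma adjusted p (Benjamini-Hochberg) of 0.059 to 0.077. In Hdhd5 8 of the 9 high strains lay below the lowest low strain, strain 8.

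Hp and Hpx are positive acute phase proteins, and the others of that class were counted next. Of the 29 measured, 18 had a difference above 0, the median was 0.025 and 0 passed the limma threshold. At an unadjusted p of 0.05, 5 were higher and 0 lower. Leaving out 1 strain at a time moved the median between 0.016 (without strain 31) and 0.085 (without strain 20). Of all genes 49.2% were above 0, and 8.06% were higher and 6.71% lower at an unadjusted p of 0.05. These shares apply to every list below. Mt1, a metallothionein, had log2 ratios from 1.49 through a median of 3.09 to 3.65 in the high strains and from 0.11 through 1.98 to 3.65 in the low strains. Since 3.65 is the upper end of every array, strains at that value cannot be ranked, and they lay in both groups. The difference was 0.98 (limma, unadjusted p = 0.031, Benjamini-Hochberg adjusted p = 0.30).

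Serum amyloid A is among the proteins most strongly induced in mouse liver during inflammation, and neither gene passed. Saa1 had log2 ratios from 0.14 through a median of 0.34 to 3.65 in the high strains and from 0.011 through 0.24 to 1.03 in the low strains. The value of 3.65 was that of strain 31 alone, and strain 39 held the highest value of the low strains. Saa2 ran from -0.53 to 0.26 in the high and from -1.61 to -0.046 in the low strains, a difference of 0.31 (limma, Benjamini-Hochberg adjusted p = 0.39). The fibrinogen chain Fgg stood at -0.36 (adjusted p = 0.44), Itih4 at 0.71 (adjusted p = 0.30), Agt at 0.35 (adjusted p = 0.21) and Cd14 at 0.30 (adjusted p = 0.25).

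Of 18 genes that carry the acute phase signal, 10 were above 0 with a median of 0.042 (0.021 without strain 21), and 0 passed in limma (1 higher at an unadjusted p of 0.05). Cebpb, a C/EBP factor, had the widest difference, 0.47 (limma, Benjamini-Hochberg adjusted p = 0.11), its log2 ratios running from 0.64 through 1.12 to 1.70 in the high and from 0.16 through 0.62 to 1.02 in the low strains. Stat3 differed by -0.036, the inhibitor Socs3 by -0.13 and the receptor subunit Il6st by -0.043. Clcf1, a cytokine of the interleukin-6 family that signals through the same receptor subunit, was outside this list and passed. Its log2 ratios ran from -0.15 through 0.23 to 0.52 in the high and from -0.61 through -0.36 to 0.067 in the low strains, overlapping, with a difference of 0.52 ± 0.10 (SE, limma, Benjamini-Hochberg adjusted p = 0.042).

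Of 12 negative acute phase proteins, which fall in inflammation, 6 had a difference above 0, and the median was 0.076. Their differences ran from -0.24 to 0.54. None passed the limma threshold, 3 being higher and 0 lower at an unadjusted p of 0.05. Albumin (Alb) differed by 0.20, transthyretin (Ttr) by 0.17, transferrin (Trf) by -0.18 and Ahsg by -0.064. Over all 59 acute phase genes, the list score ran from -0.019 through 0.07 to 0.17 in the high strains and from -0.16 through -0.051 to 0.12 in the low strains. All 9 high strains lay above the median of the low strains and 3 above the highest, and 9 genes were higher and 0 lower at an unadjusted p of 0.05. Across the 27 strains the acute phase score had a Pearson r of 0.64 with the Hp and Hpx score (0.58 without strain 22). By role the r was 0.47 for positive proteins (0.52 without strain 22), 0.67 for signalling genes (0.49) and 0.42 for negative proteins (0.34). The ribosomal score had an r of 0.66 (0.64 without strain 22). Among other lists the r was 0.66 for apolipoproteins (0.58), 0.62 for antioxidant genes (0.69) and 0.59 for proteasome subunits (0.78). It was lower for haem genes, at 0.25 (0.32), and for iron genes, at 0.30 (0.11). These values are given as a description.

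In the complement list C4bp, the binding protein that restrains C4b, was the 1 of 23 genes that passed. Its log2 ratios ran from 0.20 through 0.60 to 0.86 in the high and from -0.23 through 0.04 to 0.32 in the low strains, and 7 of 9 high strains exceeded the highest low strain (difference 0.50 ± 0.10, SE, limma, Benjamini-Hochberg adjusted p = 0.041). In the coagulation list 17 of 24 were above 0 and 0 passed the limma threshold. At an unadjusted p of 0.05, 6 were higher and 1 lower, against 8.06% and 6.71% of all genes. Prothrombin, F2, stood at 0.67 and plasminogen, Plg, at -0.60 (limma, Benjamini-Hochberg adjusted p = 0.11 and 0.19).

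Genes that handle haem, the ligand that haptoglobin and hemopexin clear, gave no call either. Of 25 measured, 17 had a difference above 0, the median was 0.08 and 0 passed the limma threshold. At an unadjusted p of 0.05, 3 were higher and 3 lower, against 8.06% and 6.71% of all genes. Both uptake receptors were on the higher side without passing, Lrp1 at 0.32 and Cd163 at 0.21 (limma, Benjamini-Hochberg adjusted p = 0.31 and 0.28). Haem oxygenase 1, Hmox1, had log2 ratios from -0.43 through 0.081 to 0.52 in the high and from -0.47 through -0.27 to 0.075 in the low strains, overlapping, with a difference of 0.27 (adjusted p = 0.25). Its relative Hmox2 differed by 0.29 (adjusted p = 0.41). Nfe2l2, the transcription factor that activates Hmox1 in oxidative stress, stood at -0.30 (limma, Benjamini-Hochberg adjusted p = 0.18). The enzymes of haem synthesis ran from -0.17 (Ppox) to 0.23 (Alas1, the first enzyme in liver).

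Of 18 genes of iron handling, 10 were above 0 with a median of 0.003, which was -0.028 without strain 39, and the transferrin receptor Tfrc passed with its probes averaged. It had log2 ratios from 0.49 through 0.75 to 1.15 in the high and from -0.043 through 0.19 to 0.56 in the low strains, and 5 of 9 high strains lay above the highest low strain, strain 39. The difference was 0.55 ± 0.11 (SE, limma on genes, Benjamini-Hochberg adjusted p = 0.035). Neither probe passed alone: one differed by 0.90 ± 0.20 (adjusted p = 0.064) and the other by 0.20 ± 0.072 (adjusted p = 0.21). Hepcidin, Hamp, the hormone that closes iron export, differed by 0.0043 ± 0.19, its values spanning -0.93 to 0.57 in the high and -0.90 to 0.38 in the low strains. The ferritin heavy chain Fth1 stood at 0.22 and the light chain Ftl1 at 0.0016.

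**Figure D4:**
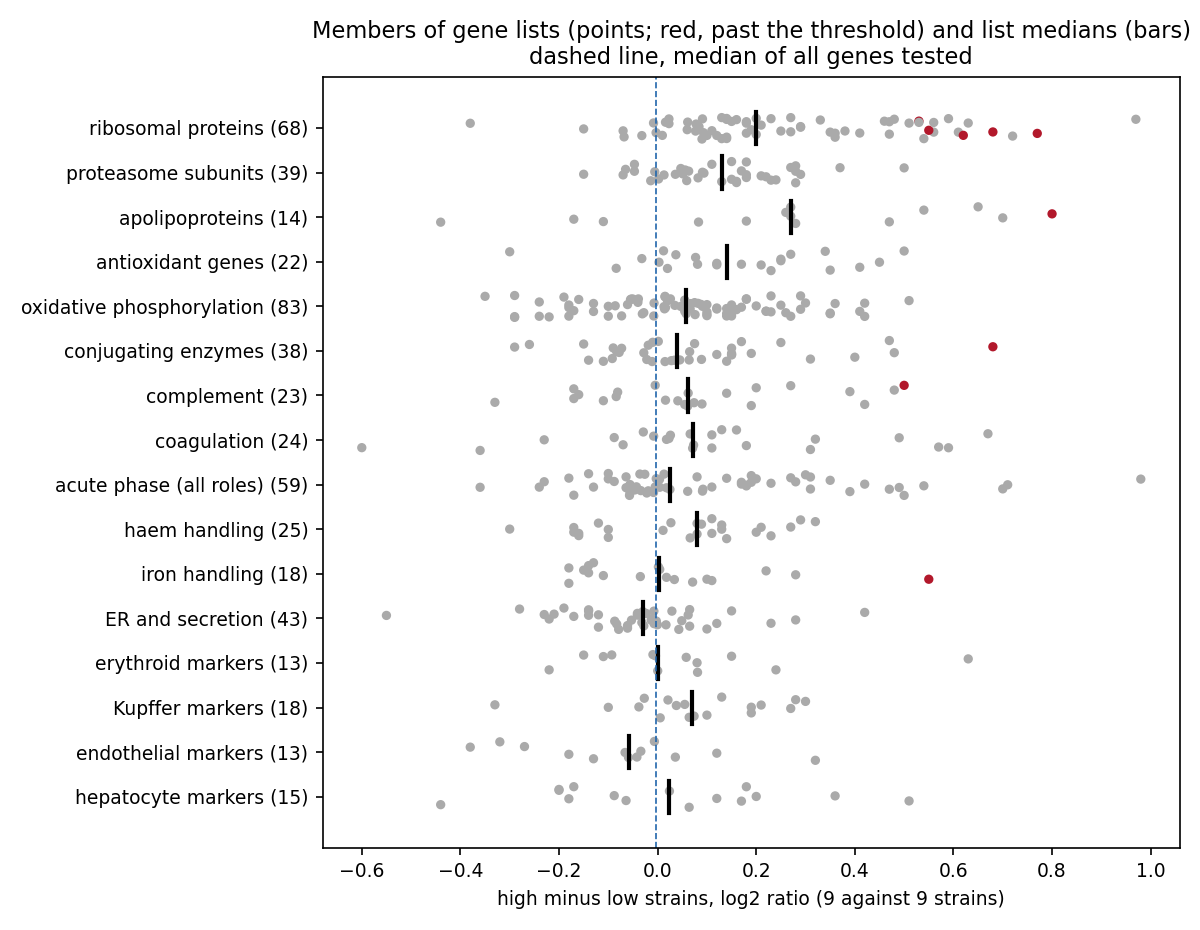
Difference between high and low strains (horizontal axis, log2, 9 against 9 strains) of each measured member of 16 gene lists, with the number measured in brackets, members past the threshold in red, list medians as black bars and the median of all genes, -0.0028, as a dashed line. Ribosomal proteins, proteasome subunits, apolipoproteins and antioxidant genes have medians of 0.20, 0.13, 0.27 and 0.14, the acute phase list has one of 0.025 and the iron list one of 0.003.

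Proteasome subunits and antioxidant genes also had medians above that of all genes. Of 39 proteasome subunits, which degrade ubiquitinated protein, 32 were above 0 with a median of 0.13. None passed in limma, but 16 were higher at an unadjusted p of 0.05. Psmb6, a catalytic subunit, had log2 ratios from 0.50 through 1.12 to 1.37 in the high and from 0.10 through 0.65 to 0.76 in the low strains, so that 8 of 9 high strains exceeded the highest low strain (difference 0.50, limma, Benjamini-Hochberg adjusted p = 0.058). Of 22 antioxidant genes, 19 were above 0 with a median of 0.14, and 0 passed in limma, 8 being higher and 1 lower at an unadjusted p of 0.05. Prdx1, a peroxiredoxin, differed by 0.50, extracellular superoxide dismutase Sod3 by 0.45 and cytosolic Sod1 by 0.41 (adjusted p = 0.066, 0.066 and 0.12 in that fit with Benjamini-Hochberg adjustment).

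Bile acid genes had 14 of 18 above 0 and a median of 0.11, 0 passing in limma (1 higher and 1 lower at an unadjusted p of 0.05), and without strain 2 the median was 0.059. Oxidative phosphorylation genes had 54 of 83 above 0 and a median of 0.058. None of them passed in limma (11 higher and 5 lower at an unadjusted p of 0.05). Genes of the endoplasmic reticulum and of secretion, the machinery that exports plasma proteins, lay on the lower side, with 13 of 43 above 0 and a median of -0.03 (-0.0087 without strain 22), and 0 passed in limma (3 higher and 1 lower at an unadjusted p of 0.05). Among targets of the fatty acid receptor PPAR-alpha 17 of 23 were above 0 with a median of 0.055. Leaving out 1 strain moved this median between 0.023 (strain 8) and 0.12 (strain 11). None of these targets passed in limma, and 6 were higher and 0 lower at an unadjusted p of 0.05. Cyp4a10, a fatty acid hydroxylase, had the widest range, from -1.69 in strain 31 through 1.36 to 1.84 in the high strains and from -1.63 through -0.43 to 1.49 in the low strains (difference 1.21, limma, Benjamini-Hochberg adjusted p = 0.19). The lipogenic genes went both ways, Scd1 at -0.92 and Fasn at 0.65 (adjusted p = 0.25 and 0.18).

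**Figure D5:**
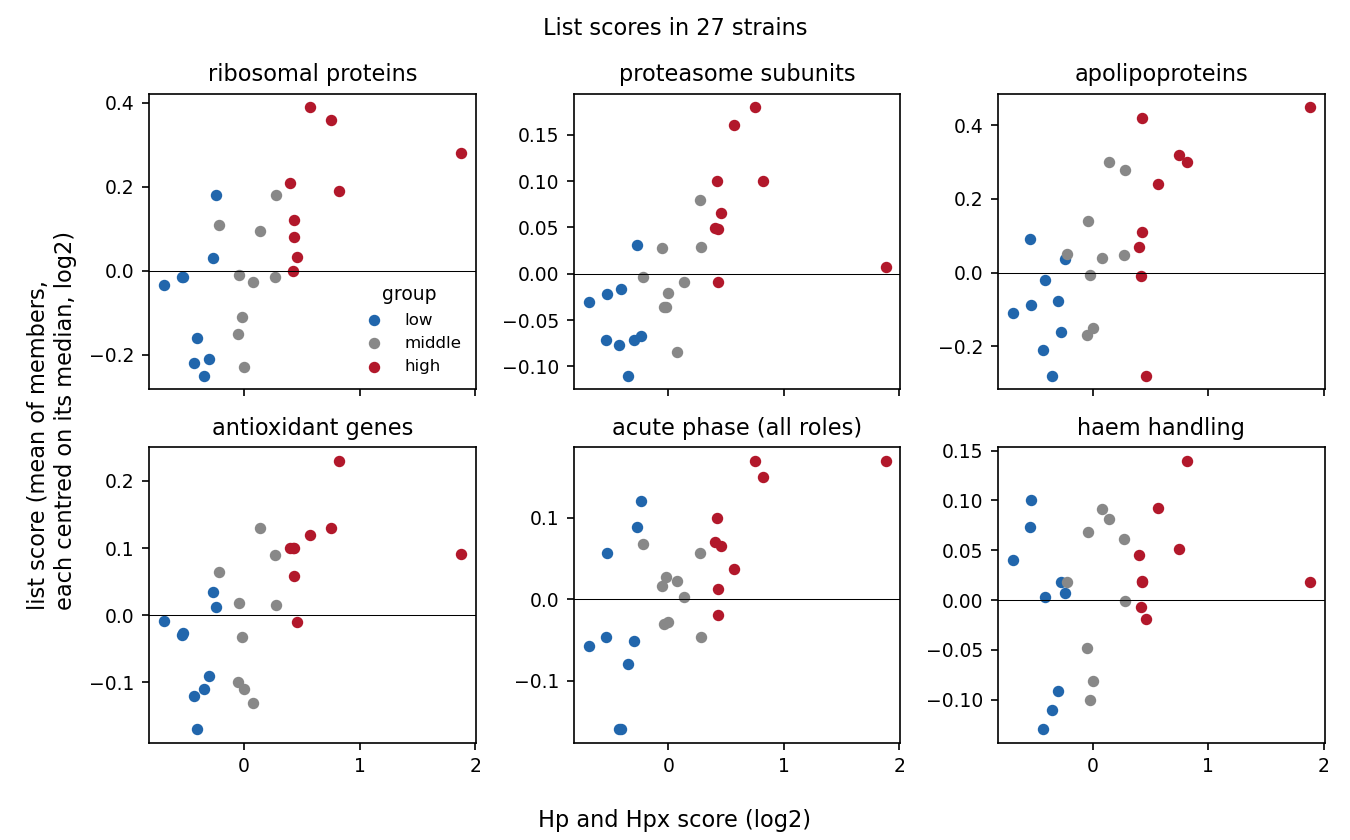
Score of 6 gene lists (vertical axis, log2) against the Hp and Hpx score (horizontal axis, log2) in 27 strains, 1 point per strain. In the ribosomal panel high strains lie between -0.001 and 0.39 and low strains between -0.25 and 0.18, while in the panel of haem handling the groups span -0.019 to 0.14 and -0.13 to 0.10.

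Of 148 measured markers of cell types in 10 lists, 0 passed the limma threshold on genes. At an unadjusted p of 0.05, 18 were higher and 10 lower, against 8.06% and 6.71% of all genes. Outside these lists Igkc, an immunoglobulin light chain gene of B and plasma cells, passed in that fit (difference 0.46 ± 0.10, SE, limma, Benjamini-Hochberg adjusted p = 0.044). It was 1 of 5 genes that passed only with probes averaged, beside Sdc4, Uchl3, Potegl and Tfrc. Kupffer cell markers had 14 of 18 above 0 (median 0.069, 5 higher and 1 lower at an unadjusted p of 0.05), with scores of -0.038 to 0.19 in the high and -0.22 to 0.13 in the low strains. Endothelial markers had 3 of 13 above 0 (median -0.059), scores -0.16 to 0.041 and -0.067 to 0.16. Bile duct markers had 6 of 6 above 0 (median 0.15), scores -0.075 to 0.24 and -0.17 to 0.038. In each of these lists the scores of the high and low strains overlapped. Erythroid markers had 7 of 13 above 0 (median 0.0002), scores -0.06 to 0.22 and -0.11 to 0.14, and the globin Hba-a1 ran from -0.34 to 1.57 in the high and from -0.94 to 1.36 in the low strains. Neutrophil markers had 7 of 13 above 0 (median 0.018), lymphocyte markers 9 of 20 (median -0.011), stellate cell markers 8 of 15 (median 0.008), pancreatic markers 12 of 24 (median -0.0032), fat cell markers 6 of 11 (median 0.023) and hepatocyte markers 8 of 15 (median 0.024). Leaving out 1 strain turned the sign of the median in the erythroid, neutrophil, lymphocyte, stellate, pancreatic and hepatocyte lists. A ratio to a reference does not show whether a marker is absent, and the part of these cells in the differences was not tested.

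A few strains recurred at the edges of the groups. Of the 30 higher probes past the threshold, the highest value among the low strains belonged to strain 8, 11 or 39 in 23, and the lowest value among the high strains to strain 27 or 31 in 21. Strain 31, whose Saa1 was at the upper end of the array, held the lowest high value in 13. Strain 22, with the highest score, held the highest value in 9 of the 30, strain 15 in 6 and strain 5 in 4. Taking single middle strains, 30 of the 36 probes lay nearer to the high strains in strain 36 and 27 in strain 9, against 3 in strain 16 and 4 in strains 14 and 24. Of the strains left out by rule, strain 42 lay nearer to the high strains in 30 probes, and strains 23, 28 and 40 in 16, 12 and 14.

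The score was also fitted as a number over the 27 strains, which include the 18 of the groups and so is no separate evidence. In that limma fit 482 probes passed with Benjamini-Hochberg adjustment (2.21%), 281 rising (1.29%) and 201 falling (0.924%) with the score, and 30 of the 36 were among them. Without strain 22 the count fell to 93 (78 rising and 15 falling), with the score from Hp alone it was 864, from Hpx alone 19, and without strain 38, which has the lowest median array correlation of the 27, 778. The named genes most like the score by Pearson r over 27 strains were Smo and Cavin4 (r = 0.81), Ahcy (0.80), Fam78b (0.79), Cnep1r1 and Tcl1b3 (0.78), Egfr (0.77), Apoc4 (0.76), Mfsd2a and Rad52 (0.75). The lowest were Capn8 (r = -0.79), Phf8-ps (-0.77), Ikzf3 (-0.76), Slco1a5 (-0.75) and Ppp1r3f (-0.74). Without strain 22 the r of Smo was 0.78 and that of Capn8 -0.78, while that of Rad52 was 0.56 and that of Ikzf3 -0.59.

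Place in the order of probe identifiers was looked at beside the probes that formed the groups. The 57 probes within 30 identifiers of Hp had a median difference of 0.067 and the 60 within 30 identifiers of Hpx one of 0.072, against -0.0047 for all probes. Rps7 and Foxa3 were the 2 of these probes past the threshold, both among the 57 near Hp, against 0.165% of all probes. Their identifiers are 39 and 48, and that of Hp is 28. The part of place in their calls was not tested. An alternative centred each array within classes of identifiers 8 apart, which does not correct for neighbouring identifiers. With it both groups kept their 9 strains and 30 probes passed, 29 of them among the 36.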

How the data were processed

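The 31 arrays (1 per strain) are 2-colour. Normalized log ratios were deposited by the authors and read here as log2 of strain over reference; R 2.0.0 and limma are listed in the submitters' processing notes. The sources used here give no log base, direction, background correction or normalization method. The direction is likely, since limma takes the red dye over the green and the strains carried the red dye. Of 23040 features 1275 were empty on every array, and 21765 had values on all arrays. Leaving out the 2 probes of the rule, 21763 were tested with limma 3.58.1 in R 4.3.3 (lmFit, high minus low, eBayes, two-sided, Benjamini-Hochberg over all probes, threshold 0.05). The platform annotation gave 1 gene for 16642 probes, several for 134 and none for 4989, and a RefSeq table (GRCm38.p6) supplied current names for 15964. For lists, probes were averaged per gene (15093 genes). Named were the genes past the threshold with 1 gene and a name that is no clone name, up to 15 in each direction. Since fewer than 5 were lower, the 10 lower genes with the smallest p were named. Kif1b, Zcchc12, Egfr, Cdk7, Clcf1, C4bp, Smo, Gtpbp4, Dennd1c and Foxa3 passed outside the 15 and were named after their values were seen. So were Igkc, Sdc4, Uchl3 and Potegl. List members were named by the largest differences, up to 6 for acute phase proteins and 4 for most lists, and others for their role. The groups, members and lists were chosen with earlier results of these data known. The fits were tested on simulated data. Alternatives were other group sizes, scores, weights, scalings, tests and left-out strains.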

Additional observations from a re-analysis of the deposited data

Results flagged for a closer look

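In 33 quantities, each examined in the 9 high, 9 middle and 9 low strains (99 groups of 9), 8 values stood apart from the rest of their group beyond the limit of Dixon's test. In values used neither to form the groups nor to choose the genes, chance gives about 1 in 20 groups. Of the 8, 3 are strain 22 in the values that formed the groups. Its Hp was 3.09 with the nearest high strain at 2.13, and its Hpx 2.62 with the nearest at 1.72. Its score, the mean of both after centring, was 1.88 with the nearest at 0.82. These 3 are a description and no test, since the rate does not hold for values by which the groups were cut. The genes flagged below were named for their difference between the high and low strains. For them the rate need not hold in those groups either, and their flags are also a description. Strain 31 stood apart from the other high strains in Apoc4, at 0.29 with the nearest at 0.85, and in Ccnt1, at 0.15 with the nearest at -0.10. Strain 11 stood apart from the other low strains in Rpl35a, at 0.96 with the nearest at 0.39, and in Rps28, at 1.09 with the nearest at 0.55, from neighbouring probes. In the middle strains Dpys was at -2.55 in strain 16, with the nearest at -0.17. Values are log2 ratios to the reference.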

How the results depend on the processing

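With 36 probes past the limma threshold as described, 7 against 7 strains gave 68, 13 against 13 gave 108, a fit of 3 levels on 27 strains 71, all 31 strains 93, Hp alone 147, Hpx alone 1, Hp and Hpx each divided by their SD 19, and array weights 263. A test for differences beyond 0.2 on the log2 scale gave 0 (334 at an unadjusted p of 0.05) and the exact rank-sum test 0 (2779 unadjusted). Without strains 8 and 15, an alternative chosen after seeing the data, it was 22. Leaving out each strain gave 2 to 227. The count stayed within 1.5 times with each array centred within classes of identifiers 8 apart (30) and without every 8th probe (33). It also did so with the median array correlation as covariate (25) and with probes averaged per gene (36). Quantile normalization and leaving out strain 38 could not change it, since the arrays already share 1 distribution and strain 38 is in neither group. Of genes, 36 passed as described, 62 with 7 against 7, 95 with 13 against 13, 82 with all 31 strains, 106 with Hp alone, 1 with Hpx alone, 18 after dividing by SD and 10 without strains 8 and 15, and leaving out each strain gave 5 to 180. The slope on the score, 482 probes, gave 778 without strain 38, 864 with Hp alone, 19 with Hpx alone and, an alternative added after seeing the data, 93 without strain 22. The median of the ribosomal list moved from 0.20 to 0.35 and that of positive acute phase proteins from 0.025 to 0.15 with all 31 strains, and that of the proteasome from 0.13 to 0.066 with 13 against 13; the medians of the apolipoproteins and antioxidant genes moved by less than the spread between strains in every alternative. None of the 15 higher and 10 lower named genes reversed its direction. The cause of these changes was not tested. No paired analysis was possible, since each strain is 1 array and no label pairs a high strain with a low strain.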
